A study of Mus musculus with 6 samples.

Results

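The genes described here are 10 of the 24346 listed in renal cortex of C57BL/6 mice: Cyp2j5, Cyp2j6, Cyp2j9, Cyp2j11, Cyp2j13, Cyp2c44, Cyp2e1, Cyp2a4, Cyp2a5 and Ephx2. They were chosen by symbol as cytochrome P450 genes of the CYP2 family, several of which make epoxides of arachidonic acid, and the hydrolase that removes those epoxides. RNA was sequenced from 3 mice given the SGLT2 inhibitor tofogliflozin in a diet labelled HF/HC/HS/BA, and from 3 mice given that diet alone, both for 8 weeks. The diet, rich in fat and cholesterol with bile salt, was common to both groups, and the labels call the samples NASH, for steatohepatitis. Sex, age and drug dose were not in the labels, and mice on ordinary chow were not analysed here.

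CYP2 epoxygenases are haem enzymes of the endoplasmic reticulum that add an oxygen atom across a double bond of arachidonic acid and so form epoxyeicosatrienoic acids. In the kidney these epoxides widen small arteries, slow sodium uptake through the epithelial sodium channel and dampen inflammation. Soluble epoxide hydrolase, the product of Ephx2, turns them into less active diols, so their level depends on both steps. Not every gene of the set is known mainly as an epoxygenase: Cyp2e1 oxidises ethanol, acetone and other small molecules, Cyp2a4 hydroxylates testosterone, and Cyp2a5 hydroxylates coumarin and nicotine.

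In the GENCODE annotation of GRCm38, which is the mm10 build used by the authors, the Cyp2j genes form 1 cluster on chromosome 4 from 96027534 to 96664154, with 8 protein-coding genes and 5 pseudogenes, all 13 on the minus strand. The 5 described here are Cyp2j13 (chr4:96027534-96077546), Cyp2j11 (chr4:96294508-96348662), Cyp2j6 (chr4:96516138-96553661), Cyp2j9 (chr4:96568429-96591578) and Cyp2j5 (chr4:96628773-96664154). Cyp2a4 (chr7:26307169-26315088) and Cyp2a5 (chr7:26835305-26843548) lie on the plus strand, 520.2 kb apart, and Cyp2e1 is on the same strand of the same chromosome (chr7:140763739-140774987). Cyp2c44, called Cyp2c23 in that annotation, is on the minus strand of chromosome 19 (chr19:44005022-44029208), and Ephx2 on the minus strand of chromosome 14 (chr14:66084374-66124500). Each value is for a whole gene and does not tell its exons or transcripts apart.

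Cyp2a4 and Cyp2a5 are so alike that their sequences bear on what was measured. Their coding sequences, of 1485 bases each, differ at 23 positions (98.5% identical), and the longest stretch with no difference runs for 216 bases. The stretch shown here, coding bases 589 to 663, surrounds a codon known for setting whether the enzyme prefers a steroid or coumarin. It is read from the GENCODE M21 transcripts, with capitals at the 4 bases that differ.
Cyp2a4: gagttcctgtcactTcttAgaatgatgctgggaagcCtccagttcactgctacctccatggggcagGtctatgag
Cyp2a5: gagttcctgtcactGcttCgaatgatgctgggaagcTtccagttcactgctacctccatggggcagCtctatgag
The difference inside that codon is C625T, with Cyp2a4 given first and positions counted from the first coding base. Of all 50-base windows of the transcript, 38.0% in Cyp2a4 and 40.8% in Cyp2a5 occur unchanged in another P450 transcript, mostly in each other, and at 100 bases the shares are 11.2% and 14.4%. For the other 8 genes at most 1.34% of 50-base windows were shared, the highest being in Cyp2j11. Neither the read length nor the handling of reads with several matches is stated, so the split of reads between Cyp2a4 and Cyp2a5 is uncertain. A predicted gene, Gm42375, also overlaps Cyp2a4 on the other strand, and a pseudogene, Hspe1-ps6, lies within Cyp2j13 on the same strand, so reads from these overlaps may be counted for either gene.

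The likeness of the Cyp2a genes extends before their start, while Cyp2j11 and Cyp2j13, both of the Cyp2j cluster, have upstream stretches that are far less alike. The log2 changes had opposite signs in both pairs: -0.56 and 0.28 for Cyp2a4 and Cyp2a5, 0.28 and -0.36 for Cyp2j11 and Cyp2j13. For the Cyp2a pair this is uncertain, since the groups overlapped for Cyp2a5 and its sign rested on diet replicate 3. Without that library the changes were -0.66 for Cyp2a4 and -0.20 for Cyp2a5. Cyp2j11 and Cyp2j13 kept their signs in all 14 other settings. No other upstream stretches were aligned, and the part of these sequences in the differences was not tested. The sequences are from RefSeq (GRCm38.p6), 210 bases each, from 250 to 41 bases before the gene start. Capitals mark the bases that differ or have no partner between Cyp2a4 (chr7:26306942-26307151) and Cyp2a5 (chr7:26835089-26835298), and, in Cyp2j11 (chr4:96348721-96348930) and Cyp2j13 (chr4:96077581-96077790), any match to TTCNNNGAA, a form of the element bound by STAT5.
Cyp2a4: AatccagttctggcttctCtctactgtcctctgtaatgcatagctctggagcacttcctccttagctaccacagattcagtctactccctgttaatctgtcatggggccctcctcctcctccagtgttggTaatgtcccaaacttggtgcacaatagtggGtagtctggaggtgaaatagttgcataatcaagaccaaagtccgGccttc
Cyp2a5: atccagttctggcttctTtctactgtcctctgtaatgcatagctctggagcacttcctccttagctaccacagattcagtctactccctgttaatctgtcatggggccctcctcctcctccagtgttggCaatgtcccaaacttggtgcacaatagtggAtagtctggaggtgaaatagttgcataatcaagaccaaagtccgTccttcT
Cyp2j11: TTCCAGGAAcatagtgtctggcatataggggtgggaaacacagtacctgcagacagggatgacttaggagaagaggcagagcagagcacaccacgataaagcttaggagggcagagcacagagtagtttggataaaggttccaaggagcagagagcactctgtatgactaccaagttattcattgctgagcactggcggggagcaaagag
Cyp2j13: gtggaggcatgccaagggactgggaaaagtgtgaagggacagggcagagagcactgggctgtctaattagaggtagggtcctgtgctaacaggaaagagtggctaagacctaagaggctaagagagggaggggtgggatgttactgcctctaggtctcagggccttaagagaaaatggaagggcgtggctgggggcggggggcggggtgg
The Cyp2a stretches were 97.2% identical over 211 aligned columns, and those of Cyp2j11 and Cyp2j13 were 49.1% identical over 224, of which 28 held gaps. The pairs also differ in their coding sequences, which were 98.5% identical for Cyp2a4 and Cyp2a5 and 76.3% for Cyp2j11 and Cyp2j13. Each motif was searched on both strands, and no match overlapped one of another motif. TTCNNNGAA stood in 1 of the 8 stretches read, that of Cyp2j11, and in 6.14% of 27025 promoter stretches of the same length. AGGTCA, bound by nuclear receptors, stood in Cyp2j5 and in 11.9% of all promoters, AGAACA, of steroid receptors, in Cyp2j6 and in 13.85% of all, and CCAAT in Cyp2e1 and in 30.4% of all. TTGCGCAA, of C/EBP factors, stood in 0 of the 8 and in 0.141% of all promoters. A match is a description of the letters and not a site. The table holds 2 starts for Cyp2j13, of which the first was used. Cyp2c44 and Ephx2 had no entry.

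Judged from the spacing of the lowest values, the libraries held about 7720000 to 9970000 fragments, with tofogliflozin replicate 1 the deepest. From the transcript lengths, Cyp2j9 then rested on about 77 fragments in its lowest library and Cyp2c44 on about 211, for which counting alone gives errors of about 11.4% and 6.88%. The other 8 rested on at least about 403, the lowest being Cyp2j6. All 6 libraries held RNA of Y-linked genes (Ddx3y at 9.87 to 12.4 FPKM with tofogliflozin and 10.5 to 10.9 FPKM with the diet alone), and Xist was at most 0.04 FPKM. Proximal tubule markers were abundant, their 12 genes summing to 6002 to 6238 FPKM with tofogliflozin and 5682 to 6734 FPKM with the diet alone. Of hepatocyte markers, which matter because the liver expresses many of these genes, Cps1 was at most 0.02 FPKM in any library and Ahsg at most 0.13 FPKM, while Alb was at 6.79, 6.72 and 8.42 FPKM with tofogliflozin against 3.37, 3.997 and 4.33 FPKM with the diet alone. The 8 hepatocyte markers summed to 70.2 to 119 FPKM with tofogliflozin and 91.1 to 159 FPKM with the diet alone. Most of each sum was Ttr. Of the 5 tested, 3 rose and 0 fell at a limma p under 0.05 before adjustment, where 6.7% and 6.39% of all tested genes did. The log2 change was below 0 in 2 of the 5, Ttr (-0.50) and Apoa2 (-0.28), and the groups overlapped in both. Adipocyte markers, none of which passed the filter, summed to 0.162 to 0.325 FPKM with tofogliflozin and 0.450 to 6.62 FPKM with the diet alone. The part of either cell type in the results was not tested.

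All 10 genes passed the filter on low values (at least 1 FPKM, fragments per kilobase of transcript scaled to library size, in 3 of the 6 libraries). Cyp2e1 was the most abundant, with a mean over the 6 libraries of 1251 FPKM, then Cyp2j5 at 524 FPKM, Ephx2 at 295 FPKM and Cyp2a4 at 254 FPKM. Cyp2j11, Cyp2a5 and Cyp2j13 followed at 129.9, 129 and 112 FPKM, and Cyp2c44, Cyp2j6 and Cyp2j9 stood at 21.9, 15.4 and 7.77 FPKM. Over the 6 libraries the ranges overlapped between Ephx2 and Cyp2a4, among Cyp2j11, Cyp2a5 and Cyp2j13, and between Cyp2c44 and Cyp2j6, so these neighbours were not separated by level. Cyp2j5 supplied 66.4% to 67.6% of the summed Cyp2j FPKM with tofogliflozin and 64.6% to 67.7% with the diet alone. Together the 10 genes made up 0.415% to 0.441% of all FPKM with tofogliflozin and 0.436% to 0.524% with the diet alone.

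The comparison asked whether the drug went with another level of these genes. The renal epoxygenase Cyp2c44 was higher with tofogliflozin, at 28.2 ± 7.12 FPKM against 15.6 ± 1.71 FPKM with the diet alone (here and below SD, n = 3 each), and so was Cyp2j11, while Cyp2a4, Cyp2j13 and Ephx2 had lower means. The most abundant epoxygenase, Cyp2j5, was nearly level, its highest library being 1.08 times its lowest. In bulk RNA, fewer cells of a type and less RNA per cell cannot be told apart. None of these differences passed the test over all genes: 0 of the 10 had an adjusted p under 0.05 (limma on log2(FPKM + 1), two-sided, Benjamini-Hochberg over 12248 genes), where 0.253% of all tested genes did, 0.196% higher and 0.0572% lower. Before adjustment, 5 of the 10 had a limma p under 0.05, with 2 higher and 3 lower, against 13.1% of all tested genes, 6.7% higher and 6.39% lower. The groups did not overlap for 5 of the 10, with 3 higher (Cyp2c44, Cyp2j11 and Cyp2j6) and 2 lower (Cyp2a4 and Cyp2j13), against 18.5% of all tested genes, 9.63% higher and 8.86% lower. The change was above 0 in 6 of the 10 and in 49.7% of all tested genes. The median log2 change was 0.09 over the 10 and -0.0008 over all tested genes. The genes were chosen with earlier results of these data known, so the counts describe the set and are no evidence for it.

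**Figure D1:**
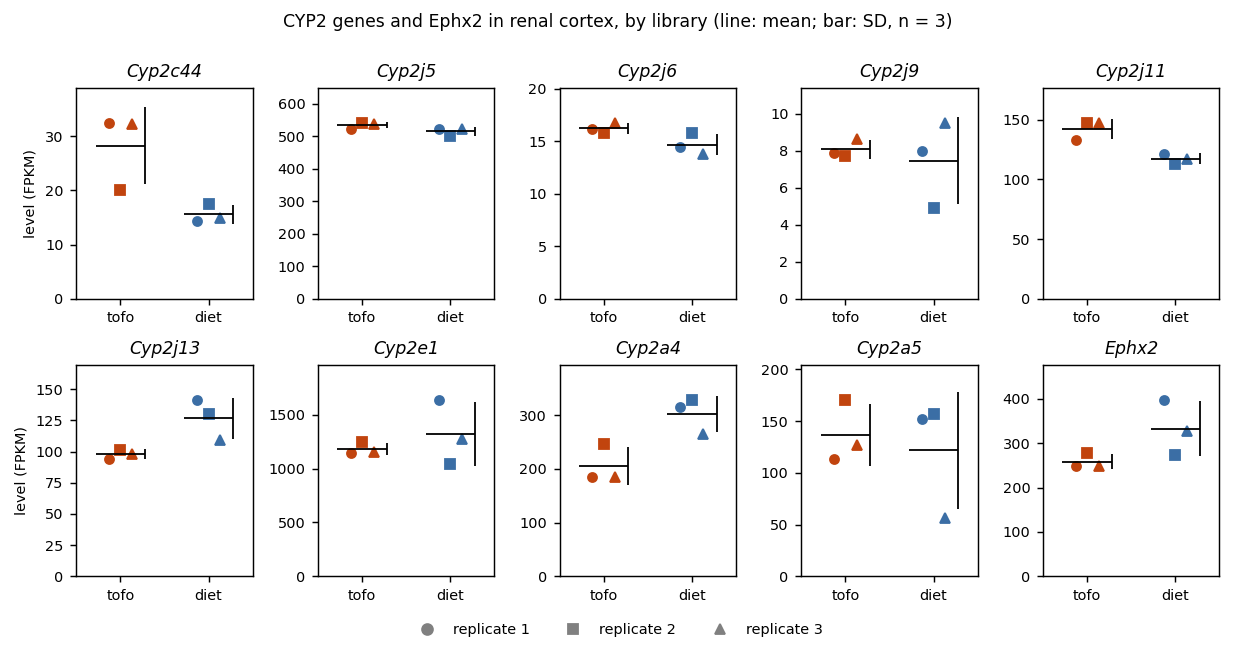
Level in FPKM (each vertical axis from 0) of the 10 genes in the 3 tofogliflozin libraries (tofo, left) and the 3 libraries of the diet alone (right), with symbols by replicate number, the mean as a line and the SD as a bar. Cyp2c44 and Cyp2j11 are higher in every tofogliflozin library than in any diet library, Cyp2a4 and Cyp2j13 are lower, and Cyp2j5 is nearly level.

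Cyp2c44, an epoxygenase of the mouse nephron, had the smallest p of the 10, ranking 205 of 12248. It was at 32.5, 20.0 and 32.2 FPKM in tofogliflozin libraries 1 to 3, against 14.3, 17.5 and 14.9 FPKM in the diet libraries. Tofogliflozin replicates 1 and 3 were high and alike, replicate 2 lay only just above the highest diet library, and the groups did not overlap. The log2 change was 0.79 ± 0.18 (SE; 95% interval 0.38 to 1.204; limma adjusted p = 0.1302). Without tofogliflozin replicate 2 the change was 1.01 and passed over all genes (limma adjusted p = 0.0366), the sole setting of 14 tried in which any of the 10 genes did; over those settings its adjusted p ran up to 0.438. Cyp2c44 made up 4.03%, 2.40% and 3.83% of the summed FPKM of the 6 epoxygenase genes (the Cyp2j genes and Cyp2c44) with tofogliflozin, against 1.74%, 2.24% and 1.89% with the diet alone.

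Of the 5 Cyp2j genes, Cyp2j11 and Cyp2j6 were higher and Cyp2j13 lower without overlap between the groups, and Cyp2j5 and Cyp2j9 overlapped. Their summed level, of which Cyp2j5 makes up most, was 774, 814 and 808 FPKM with tofogliflozin, against 807, 763 and 773 FPKM with the diet alone, and the ranges overlapped. Cyp2j5, the main Cyp2j enzyme of mouse kidney, known to form epoxyeicosatrienoic acids, was at 523, 541 and 537 FPKM with tofogliflozin, against 522, 500.1 and 523 FPKM with the diet alone. Its log2 change was 0.05 (95% interval -0.12 to 0.22; limma adjusted p = 0.812), an interval that allows a modest difference either way.

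Cyp2j11, a gene of liver and kidney, was at 133, 147 and 148 FPKM with tofogliflozin, against 122, 113 and 117 FPKM with the diet alone. All tofogliflozin libraries were above all diet libraries, by a log2 change of 0.28 ± 0.07 (SE; limma adjusted p = 0.187). Cyp2j13, a kidney enzyme that also hydroxylates arachidonic acid near its end, was at 93.9, 102 and 98.2 FPKM with tofogliflozin, against 141, 129.7 and 109 FPKM with the diet alone. Here every tofogliflozin library was the lower one, diet replicate 3 coming nearest, with a log2 change of -0.36 ± 0.10 (SE; limma adjusted p = 0.201). Cyp2j11 was the higher of the pair in all 3 tofogliflozin libraries and in 1 of the 3 diet libraries, replicate 3: the ratio of Cyp2j11 to Cyp2j13 was 1.42, 1.45 and 1.503 with tofogliflozin, against 0.863, 0.868 and 1.08 with the diet alone. This ratio was formed after both values had been seen.

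The scarce Cyp2j genes showed smaller or less even differences. Cyp2j6 was at 16.2, 15.7 and 16.7 FPKM with tofogliflozin, against 14.5, 15.7 and 13.8 FPKM with the diet alone. The groups barely separated, since tofogliflozin replicate 2 and diet replicate 2 were almost equal (15.739 and 15.734 FPKM), and the log2 change was 0.14 (95% interval -0.04 to 0.31; limma adjusted p = 0.492). Cyp2j9, best known from brain, was at 7.85, 7.70 and 8.66 FPKM with tofogliflozin, against 8.01, 4.90 and 9.52 FPKM with the diet alone. Its tofogliflozin values lay inside the range of the diet values, of which replicate 2 was low, and leaving that library out turned its log2 change of 0.14 to -0.10.

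**Figure D2:**
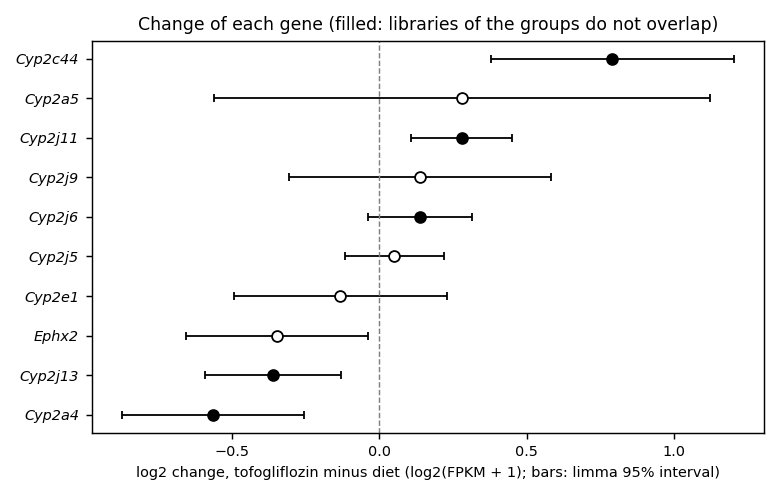
Difference in log2(FPKM + 1) between tofogliflozin and diet libraries for each of the 10 genes, with limma's 95% interval as bars; filled points mark genes whose groups do not overlap. The changes run from -0.56 for Cyp2a4 to 0.79 for Cyp2c44, and the interval of Cyp2a5, from -0.56 to 1.12, is the widest.

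Of the other CYP2 genes of the set, Cyp2a4 stood lower with the drug and Cyp2a5 and Cyp2e1 did not separate the groups. Cyp2a4 was at 185, 246 and 185 FPKM with tofogliflozin, against 315, 327 and 264 FPKM with the diet alone. Tofogliflozin replicates 1 and 3 were low and alike, and replicate 2 lay just below the lowest diet library, diet replicate 3. The log2 change was -0.56 ± 0.13 (SE; 95% interval -0.87 to -0.26; limma adjusted p = 0.148, and 0.0881 to 0.471 over 14 other settings).

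Cyp2a5 was at 113, 170.2 and 126 FPKM with tofogliflozin, against 152, 157 and 56.3 FPKM with the diet alone. Diet replicate 3 was the lowest of the 6 libraries. Diet replicates 1 and 2 lay inside the range of the tofogliflozin libraries, so the groups overlapped with or without diet replicate 3. Its change of 0.28 on the log2 scale (95% interval -0.56 to 1.12, adjusted p = 0.794 by limma) became -0.20 without that library. Since reads may be split between Cyp2a4 and Cyp2a5, their sum was also taken, which was 298, 416 and 311 FPKM with tofogliflozin against 467, 484 and 321 FPKM with the diet alone. The sums overlapped, as tofogliflozin replicate 2 was above diet replicate 3. Cyp2a4 formed 62.1%, 59.1% and 59.4% of the sum with tofogliflozin, against 67.5%, 67.6% and 82.4% with the diet alone.

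**Figure D3:**
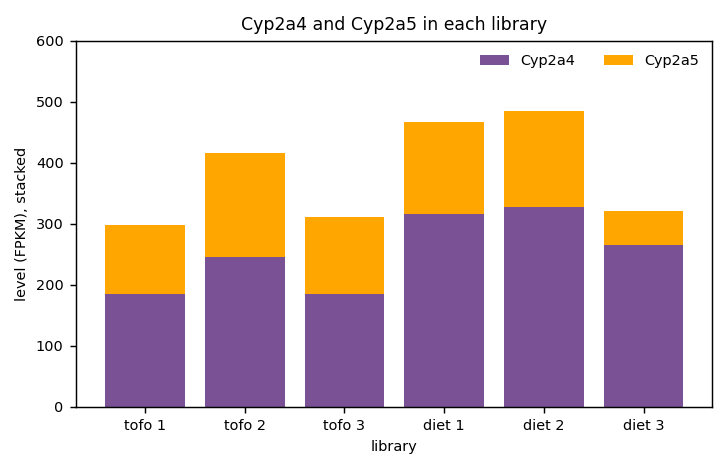
Level in FPKM of Cyp2a4 (lower part of each bar) and Cyp2a5 (upper part), stacked from 0, in the 3 tofogliflozin libraries (tofo, left) and the 3 diet libraries. The sum ranges from 298 to 416 FPKM with tofogliflozin and from 321 to 484 FPKM with the diet alone, and Cyp2a5 is smallest in diet replicate 3.

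Cyp2e1 was at 1148, 1248 and 1155 FPKM with tofogliflozin, against 1635, 1047 and 1272 FPKM with the diet alone. The tofogliflozin libraries lay between the diet libraries, of which replicate 1 was far above and replicate 2 below all others. The log2 change was -0.13 (95% interval -0.49 to 0.23; limma adjusted p = 0.773), and 0.035 without diet replicate 1.

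Ephx2, on the degrading side of the pathway, had a lower mean with the drug and overlapping groups. It was at 249, 278 and 248 FPKM with tofogliflozin, against 397, 272 and 328 FPKM with the diet alone. Diet replicate 1 was the highest and diet replicate 2 fell within the range of the tofogliflozin libraries. The log2 change was -0.35 ± 0.13 (SE; 95% interval -0.65 to -0.04; limma adjusted p = 0.322). It was -0.48 without diet replicate 2 (limma adjusted p = 0.0883) and -0.21 without diet replicate 1 (0.630).

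Set beside each other, Cyp2c44 was at 13.1%, 7.18% and 13.0% of the Ephx2 level with tofogliflozin, against 3.601%, 6.43% and 4.55% with the diet alone. Ephx2 was at 0.309, 0.334 and 0.295 times the summed epoxygenase level with tofogliflozin, against 0.483, 0.349 and 0.416 times with the diet alone. These are ratios of RNA levels per length, chosen after the values were seen, and say nothing of enzyme activity or of epoxide levels, which were not measured.

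The genes differed in how their libraries scattered. On the log2 scale the SD was larger among diet libraries for 7 of the 10, as it was for 60.3% of all tested genes. It was 0.07 with tofogliflozin and 0.32 with the diet alone for Cyp2e1, and 0.09 and 0.27 for Ephx2, both of which were highest in diet replicate 1 and lowest among diet libraries in replicate 2. Cyp2c44 scattered the other way, with an SD of 0.38 with tofogliflozin and 0.15 with the diet alone. In Cyp2c44, Cyp2a4, Cyp2j13, Cyp2j6 and Ephx2 tofogliflozin replicate 2 was the library of its group nearest to the diet libraries. In Cyp2j11 that library was tofogliflozin replicate 1.

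**Figure D4:**
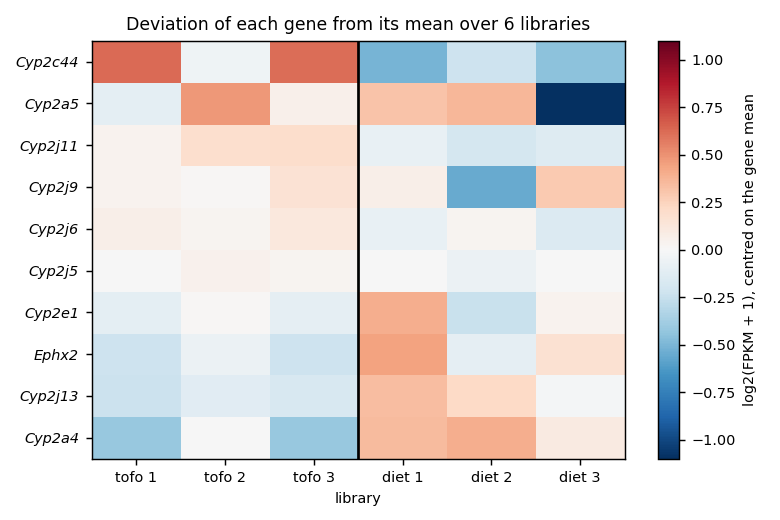
Deviation of log2(FPKM + 1) from the mean of each gene over the 6 libraries, with tofogliflozin libraries (tofo) left of the line and diet libraries right of it; red is above and blue below the mean. Cyp2c44 deviates by 0.62, -0.05 and 0.61 in the tofogliflozin libraries, and the deepest blue is Cyp2a5 in diet replicate 3, at -1.0996.

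By the smallest root-mean-square difference between centred log2 profiles over the 6 libraries, the genes most like Cyp2c44 were Abcb1b, a drug efflux pump, at 0.07, Gpc3, a cell-surface glypican, at 0.10, Mfsd7c and Slc22a29 at 0.12 each, and Fam13a at 0.13. Abcb1b was at 7.68, 4.38 and 7.34 FPKM with tofogliflozin, against 2.49, 3.75 and 3.17 FPKM with the diet alone. Replicate 2 was lowest with the drug and highest without it, a likeness to Cyp2c44 that follows from how the gene was picked. Slc22a29 was at 2.57, 1.09 and 2.23 FPKM with tofogliflozin, against 0.409, 0.582 and 0.751 FPKM with the diet alone. It thus met the filter of 1 FPKM only through the tofogliflozin libraries, which bears on its place among these genes. None of the 5 passed over all genes, their limma adjusted p running from 0.148 for Abcb1b to 0.216 for Fam13a.

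Several genes of the set differ between male and female mouse kidneys, so genes known for that difference were read in the same libraries. Of 9 genes listed as higher in male kidney, 0 passed over all genes (limma), 6 were lower and 0 higher at an unadjusted p under 0.05, against 6.39% and 6.7% of all tested genes, and the median log2 change was -0.45. Odc1, of polyamine synthesis, was at 277, 498 and 260 FPKM with tofogliflozin, against 1079, 582 and 636 FPKM with the diet alone. Kap, the kidney androgen-regulated protein gene, differed by 0.16 on the log2 scale, and its groups overlapped (adjusted p = 0.827 by limma).

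Of 3 genes listed as higher in female kidney, 2 passed the filter and both were higher at an unadjusted p. The prolactin receptor gene Prlr was at 33.1, 19.7 and 33.4 FPKM with tofogliflozin, against 9.28, 18.4 and 10.8 FPKM with the diet alone (log2 change 1.12; limma adjusted p = 0.148). Prlr and Cyp2c44 ordered the libraries alike in that tofogliflozin replicate 2 was the lowest of its group and diet replicate 2 the highest of its own. The part of these genes in the differences of the set was not tested.

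Markers of other kidney cells were read beside these values. All 5 collecting duct markers, a segment in which Cyp2c44 is known to act, had a log2 change above 0, their sum ranging from 246 to 301 FPKM with tofogliflozin and from 181 to 221 FPKM with the diet alone. None of the 5 passed over all genes (3 at an unadjusted limma p under 0.05, all higher, against 6.7% of all tested genes; a change above 0 was found in 49.7% of all tested genes), and their part in the Cyp2c44 difference was not tested. Endothelial markers summed to 160.4 to 194 FPKM with tofogliflozin and 171 to 181 FPKM with the diet alone. All 8 macrophage markers had a change below 0, with sums of 829 to 1584 FPKM with tofogliflozin and 648 to 4130 FPKM with the diet alone, most of it Cd74, and 0 passed over all genes (limma; 2 lower at an unadjusted p). Of the 12 proximal tubule markers 7 had a change above 0, of 5 thick limb and distal tubule markers 4 did, of 5 podocyte markers 3 and of 7 endothelial markers 4. No marker of these lists passed over all genes (limma), and at an unadjusted p under 0.05 there were 2 higher and 1 lower in the proximal list, 2 higher in the thick limb list and 1 higher among podocyte markers. Their part in the differences of the set was not tested.

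The wider pathway was described from lists of genes grouped by role, each count at an unadjusted p to be read against the 6.7% higher and 6.39% lower of all tested genes. Of 40 other CYP2 genes listed 39 were in the files and 8 passed the filter on low values. Among these 8, Cyp2d12 rose, to 167 ± 14.3 FPKM with tofogliflozin against 84.1 ± 11.4 FPKM with the diet alone (log2 change 0.99 ± 0.11, SE; limma adjusted p = 0.0188). It stayed higher in 14 of 14 other settings but passed in 9, failing with no filter (limma adjusted p = 0.0870), without tofogliflozin replicate 1, 2 or 3 (0.0788, 0.0674 and 0.101) and without diet replicate 1 (0.0552). Its relatives Cyp2d22 and Cyp2d26 had log2 changes of 0.40 and 0.54 (limma adjusted p = 0.0955 and 0.157), and genes of the Cyp2d cluster can share reads, so each value is uncertain. The 8 had a median change of 0.32, with 7 above 0, against a median of -0.0008 and 49.7% above 0 over all tested genes. At an unadjusted limma p under 0.05, 4 were higher, among them Cyp2d12, Cyp2d22 and Cyp2d26, and 0 were lower.

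Ephx1, the microsomal epoxide hydrolase and the sole other hydrolase above the filter, was at 23.5, 27.3 and 23.3 FPKM with tofogliflozin, against 19.2, 20.9 and 17.2 FPKM with the diet alone. All its tofogliflozin libraries were higher, opposite to Ephx2, by a log2 change of 0.35 that did not pass (limma adjusted p = 0.199).

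Of 12 tested CYP4 genes, whose products hydroxylate the end of fatty acids including arachidonic acid, 0 passed over all genes and 3 had p under 0.05 before adjustment (limma), 2 higher and 1 lower, against 6.7% and 6.39% of all tested genes. Cyp4a14 was at 59.3, 27.9 and 125 FPKM with tofogliflozin, against 13.5, 13.2 and 15.6 FPKM with the diet alone (limma adjusted p = 0.124), and here too tofogliflozin replicate 2 was the lowest of its group. The list had a median change of 0.09.

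Among genes that supply or compete for arachidonic acid no change passed. Of 15 tested genes of its release and re-esterification, 0 passed (limma; unadjusted p under 0.05 in 3 higher and 1 lower) and the median change was -0.06. Acsl3, an acyl-CoA synthetase, was at 11.2 ± 1.61 FPKM with tofogliflozin and 8.10 ± 0.630 FPKM with the diet alone. Pla2g6, a calcium-independent phospholipase, was at 8.43 ± 1.02 FPKM with tofogliflozin and 11.2 ± 0.888 FPKM with the diet alone. Of 18 tested genes of the cyclooxygenase and lipoxygenase branches, 0 passed (limma; 2 higher and 2 lower at an unadjusted p) and the median change was -0.002. Cbr1, a carbonyl reductase that acts on prostaglandins, had the smallest p, at 50.9 ± 3.24 FPKM with tofogliflozin and 39.4 ± 3.16 FPKM with the diet alone (limma adjusted p = 0.143).

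On the receiving side, 0 of 6 tested eicosanoid receptor genes passed (limma; 1 higher at an unadjusted p), with Ptgfr, a prostaglandin F receptor gene, at 8.73 ± 0.902 FPKM with tofogliflozin and 6.19 ± 0.734 FPKM with the diet alone. Of 11 genes listed as reported targets of the epoxides, 6 passed the filter, with 0 past adjustment (limma), and before it 4 higher and 2 lower, against 6.7% and 6.39% of all tested genes. The epithelial sodium channel genes Scnn1g, Scnn1a and Scnn1b had log2 changes of 0.41, 0.41 and 0.33, with all tofogliflozin libraries above all diet libraries in each (limma adjusted p = 0.0644, 0.0803 and 0.184). Ppard, a nuclear receptor gene, was at 6.43 ± 0.634 FPKM with tofogliflozin and 9.07 ± 0.755 FPKM with the diet alone (limma adjusted p = 0.129). The channel genes are also expressed in the collecting duct, whose markers had the values given above, and the part of those cells in these differences was not tested.

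P450 enzymes need haem and partners that pass them electrons. Of 18 tested genes of electron donors and of haem synthesis and breakdown 0 passed (limma; 1 higher and 1 lower at an unadjusted p), with a median change of -0.02. The haem oxygenase gene Hmox1, of haem breakdown, had the smallest p, at 16.8 ± 2.62 FPKM with tofogliflozin and 26.1 ± 6.61 FPKM with the diet alone (limma adjusted p = 0.229). Its groups barely separated, with 19.68 FPKM in tofogliflozin replicate 2 and 19.74 FPKM in diet replicate 3. Of 8 tested genes of ethanol, aldehyde and peroxide oxidation, the context of Cyp2e1, 0 passed (limma; 1 higher at an unadjusted p) and the median change was -0.09. That 1 gene was Aldh1a1, a retinaldehyde dehydrogenase, at 6.96 ± 2.45 FPKM with tofogliflozin and 2.97 ± 0.990 FPKM with the diet alone.

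Of 19 tested transcription factor genes that control P450 genes 0 passed (limma; 1 higher and 2 lower at an unadjusted p), with a median change of -0.01.

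**Figure D5:**
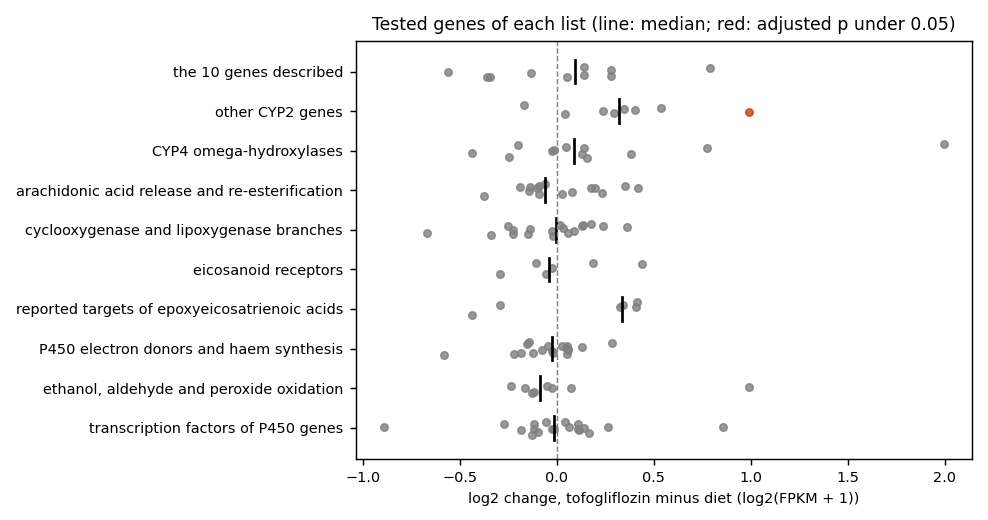
Difference in log2(FPKM + 1) between tofogliflozin and diet libraries for each tested gene of the 10 described and of 9 pathway lists, with the median of each list as a line. The 1 red point, past an adjusted p of 0.05, is Cyp2d12 at 0.99, and the point farthest right is Cyp4a14 at 1.999.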

How the data were processed

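The authors deposited 1 table per library with an FPKM value for each gene symbol. Per the labels' protocols, RNA of renal cortex was purified on columns and a stranded mRNA kit was used. Per the submitters' processing notes, the build was mm10 and the tools included Cuffdiff 2.2.1, TopHat2 2.1.1, SAMtools 0.1.18 and Bowtie2 2.2.8; which annotation, strand setting and scaling were used is not stated. Upper quartiles of the deposited FPKM lay between 10.5 and 10.6.

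Genes reaching 1 FPKM in 3 or more of the 6 libraries (12248 of 24346) were put on the log2(FPKM + 1) scale, which understates changes of low genes, and compared with limma 3.58.1 in R 4.3.3 (mean-variance trend, two-sided, Benjamini-Hochberg, threshold 0.05), a fit tested on simulated data. The series' design text gives 3 mice a group. The 10 genes and the lists were chosen with earlier results of these data known. Named are all 10 genes, up to 3 genes of smallest p in each pathway list, and the 5 profiles nearest to the gene of smallest p; Scnn1b and the marker and sex-related genes given by name were chosen after their values were seen. One gene of the transcription factor list and one motif are not reported here.

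Relative depth came from genes below 0.3 FPKM: once libraries were put on 1 scale, 80.7% of 6204 values lay within 3% of a multiple of the smallest for their gene, and 280 genes of a single transcript gave the total, so depths and fragment numbers are estimates and cover counting error only. Annotation was GENCODE M21, in which Cyp2c44 was found through its older symbol. RefSeq promoters held 8 of the 10. Sequences were aligned with Biopython 1.88, and figures drawn with matplotlib 3.10.9.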

Additional observations from a re-analysis of the deposited data

How the results depend on the processing

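None of the 10 genes passed an adjusted p of 0.05 in 13 of 14 other settings. Leaving out 1 library gave 0 to 1 such genes, the 1 being Cyp2c44 without tofogliflozin replicate 2. Directions were kept in all 14 settings by 7 of the 10 genes. Reversals came without 1 library, where the log2 change ran from -0.29 (without diet replicate 2) to 0.035 (without diet replicate 1) for Cyp2e1, from -0.10 (without diet replicate 2) to 0.31 (without diet replicate 3) for Cyp2j9, and from -0.20 (without diet replicate 3) to 0.53 (without diet replicate 2) for Cyp2a5. Cyp2c44, Cyp2a4, Cyp2j11 and Cyp2j13 had an unadjusted limma p under 0.05 in 14 of 14 settings, and Ephx2 in 9.

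Over all genes, 31 passed, and 1 did with no filter (17726 genes tested), 20 with a filter of 5 FPKM (8754 tested) and 61 with a robust trend. Without 1 library the count ran from 2 (without tofogliflozin replicate 3) to 66 (without diet replicate 2). The cause was not tested beyond the change in the genes or libraries used. With the replicate number as a block, 26 of all genes and 0 of the 10 passed. Deviations of same-numbered libraries correlated at -0.05, -0.06 and 0.05, against -0.14 to 0.19 for the other pairs. With 3 libraries a group, these values cannot settle whether the numbers pair the libraries.

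With 3 libraries a group, the SE of the log2 change ran from 0.07 for Cyp2j5 to 0.37 for Cyp2a5. Counting error at the estimated depth was at most about 11.4%, for Cyp2j9 in its lowest library.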
